A study of Rattus norvegicus with 14 samples.

Results

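The 30 mitotic cell cycle genes described here were chosen by name from the probe annotation of 14 one-colour Affymetrix arrays of rat IEC-6 cells, a normal, non-tumour epithelial line derived from small intestinal crypts. Where a gene had several probe sets, the one brightest on average over the arrays (in log2 signal) stood for it, so that 30 of 14218 named genes are described. Monolayers were exposed for 72 h to NS-398 at 100 µM (4 arrays), indomethacin at 100 µM (2 arrays), SC-560 at 1 µM (4 arrays), or the solvent DMSO alone (4 arrays). Indomethacin inhibits both cyclooxygenases, NS-398 prefers cyclooxygenase-2 and SC-560 prefers cyclooxygenase-1. The submitters chose NS-398 and indomethacin as drugs that slow cell migration, and SC-560 as a drug that lacks this action.

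The array titles hold the number 1 or 2, with or without a suffix b. The 8 arrays with the suffix and the 6 without it are called set b and the plain set, and each combination of drug and set has 2 arrays. Both indomethacin arrays belong to set b. The labels do not say what the suffix stands for. The design text describes pooled cultures and repeated chips of each biological sample, so that p-values cover only array-to-array spread, part of which may be technical.

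Entry into mitosis is driven by cyclin-dependent kinase 1 bound to cyclins of the A and B types. Aurora and Polo-like kinases then build the spindle, the spindle checkpoint holds the cell until every chromosome is attached, and the anaphase-promoting complex releases it by destroying securin and cyclin B. Transcripts of these genes rise together late in the cycle and are low in resting cells. In bulk RNA, fewer cells of a cycle phase and less of a transcript per cell cannot be told apart.

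All 14 arrays had a median signal between 97.8 and 118, and the first principal component of the arrays held 69.2% of the variance. For beta-actin, whose 3' over 5' control ratio falls with more intact RNA or longer labelled copies, set b had ratios of 1.22 to 1.34 and the plain set 1.498 to 1.639. The same ratio for Gapdh did not part the sets, with 0.955 to 1.002 in set b and 0.902 to 0.990 in the plain set. The epithelial genes Cdh1, Krt8 and Cdx2 had mean signals of 5212, 4755 and 2451 over the arrays, while those of Epcam, Krt18 and Vil1 were 34.0, 21.5 and 73.9. In all, 6 of 16 epithelial genes had a mean signal of at least 100. Of 15 genes listed as markers of fibroblasts and smooth muscle 8 did, with 23510 for Vim and 426 for Acta2, and the other 7, among them Pdgfra (35.4) and Thy1 (46.4), did not. Of 8 leukocyte and endothelial genes measured, 1, the endothelial receptor Tek, reached it with 509, while Ptprc and Pecam1 had 15.9 and 14.2. The summed signal of the 15 fibroblast and smooth muscle genes was 91039 to 106170 in set b and 68574 to 78513 in the plain set, and that of 16 epithelial genes was 13064 to 16451 in set b and 11427 to 12272 in the plain set. The summed signal of the 8 leukocyte and endothelial genes measured was 856 to 1055 in set b and 412 to 531 in the plain set. Such sums follow the brightest genes, and single genes moved both ways. Between the DMSO arrays, the log2 change from the plain set to set b was above 0 for 5 fibroblast and smooth muscle genes and below for 6. For epithelial genes it was above 0 for 5 and below for 4. The mean signal of Tek in set b was 3.43 times that in the plain set, and that of Kdr 0.0267 times. The part of RNA quality and of these genes in the results below was not tested.

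All 30 genes passed the filter on low signals, a signal of 100 on at least 2 arrays. Changes are given on the scale log2(signal + 50), as a mean difference ± SE from a limma fit with 1 mean for each combination of drug and set. A gene is said to have risen or fallen where its Benjamini-Hochberg adjusted p over 17515 probe sets was under 0.05.

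Without any drug, the mitotic genes were already higher in set b than in the plain set. On the DMSO arrays, 27 of the 30 genes were higher in set b than in the plain set in limma and none was lower. At an unadjusted p under 0.05 these counts were the same, and 8625 of 17515 probe sets passed in either direction. At an adjusted p under 0.05, 21.8% of all probe sets were called higher in this comparison and 20.1% lower. The median change of the 30 genes was 0.62, against 0.02 over all probe sets tested. Kif23, a motor protein of the central spindle, had signals of 3069 and 2779 on the set b DMSO arrays, against 1435 and 1386 on the plain DMSO arrays. Kif20a, a kinesin that carries Aurora B to the central spindle, had 4075 and 4129, against 2165 and 1982. The DMSO arrays of the sets did not overlap for either gene, and the changes were 1.02 ± 0.09 for Kif23 and 0.97 ± 0.07 for Kif20a (limma adjusted p 6.45e-08 and 2.61e-08).

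The gap between the sets was not the same for every mitotic gene. Ube2c, the enzyme that hands ubiquitin to the anaphase-promoting complex, was higher by 0.91 ± 0.06 in set b, and Cks2, a small subunit of cyclin-dependent kinases, by 0.69 ± 0.06. Pttg1, which encodes securin, had 2178 and 2350 on the set b DMSO arrays, against 2282 and 2225 on the plain ones, and these overlapped. Its change of 0.0056 did not pass the test (limma adjusted p 0.965), nor did those of Ccna2, the cyclin of S and G2 phase (0.16 ± 0.09, limma adjusted p 0.175), and Cenpa, the centromeric histone (0.22 ± 0.16, limma adjusted p 0.293). Arrays of the sets did not overlap for 28 of the 30 genes, in the higher direction each time, against 37.4% of all probe sets in that direction. The median gap between set b and the plain set was 0.35 over the NS-398 arrays, 0.52 over the SC-560 arrays and 0.62 over the DMSO arrays. Cdc25b, a phosphatase that activates Cdk1, rests on low signals (272 and 175 on the set b DMSO arrays, against 88.1 and 133 on the plain ones), and its call was lost without DMSO array 1 or 1b (limma adjusted p up to 0.171). Plk1, the Polo-like kinase, lost its call without DMSO array 2 (limma adjusted p 0.0805).

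**Figure D1:**
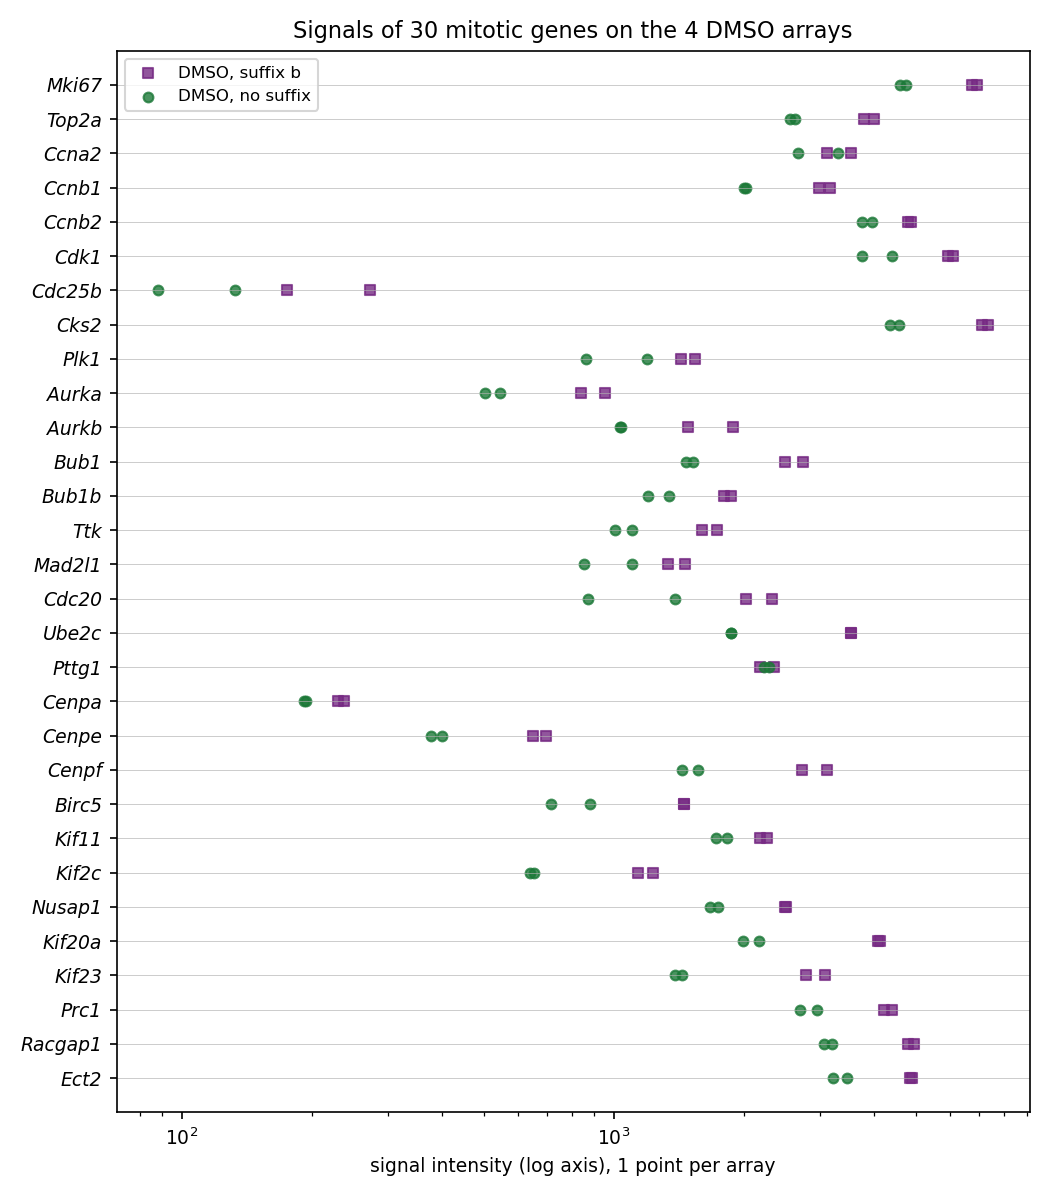
Signal intensity (log axis) of each of the 30 mitotic genes on the 2 DMSO arrays of set b (squares) and the 2 DMSO arrays of the plain set (circles), 1 point per array. Set b lies to the right for 28 of the 30 genes, and the points of Pttg1 and Ccna2 overlap.

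NS-398 was compared with DMSO to ask what a drug that slows migration does to these cells, and in set b it went with lower mitotic transcripts. Of the 30 genes 16 fell in limma and none rose, where 6.99% of all probe sets fell and 7.71% rose. The median change was -0.25, with 27 genes below 0, against a median of -0.009 over all probe sets. At an unadjusted p under 0.05, 20 genes were lower and 1, Cks2, was higher, where 4834 of 17515 probe sets passed in either direction. For 23 genes both NS-398 arrays lay below both DMSO arrays and for 1 above, against 28.5% and 27.1% of all probe sets. The single DMSO and NS-398 arrays of set b set how many calls were made. Of the 16 calls, 7 remained without DMSO array 1b, where 1 further gene was called, 7 without DMSO array 2b and 7 without NS-398 array 2b. With a prior variance that did not follow intensity, 6 remained.

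Cyclin A2, which drives S phase and entry into mitosis, had one of the larger falls in set b. Ccna2 had signals of 2166 and 2038 on the NS-398 arrays, against 3537 and 3111 on the DMSO arrays. The groups did not overlap, and the fall of -0.65 ± 0.09 corresponds to 0.639 of the DMSO level on the same scale (limma adjusted p 0.000221). The B-type cyclins that activate Cdk1 at mitosis also fell, Ccnb1 by 0.26 ± 0.07 and Ccnb2 by 0.20 ± 0.06 (limma adjusted p 0.0291 and 0.0312). Cdk1 itself had 5665 and 5776 under NS-398, against 6070 and 5933 under DMSO, a change of -0.07 ± 0.07 that did not pass. Cks2 had 8013 and 7805 on the NS-398 arrays, against 7087 and 7338 on the DMSO arrays, and was the one gene of the 30 whose NS-398 arrays lay above (0.13 ± 0.06, limma adjusted p 0.139).

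Checkpoint and cytokinesis genes fell in set b as well. Of the 4 spindle checkpoint genes 3 fell, with Bub1, a kinase that recruits checkpoint proteins to the kinetochore, at -0.41 ± 0.07, Bub1b, which inhibits the anaphase-promoting complex, at -0.34 ± 0.10, and Ttk, the kinase at the head of the checkpoint, at -0.33 ± 0.09. Mad2l1, which captures Cdc20 while chromosomes are unattached, had 0.07 ± 0.10 and was not called. Of the 5 genes of the central spindle and cytokinesis 4 fell. These were Kif23 at -0.58 ± 0.09, Kif20a at -0.44 ± 0.07, Ect2, which activates RhoA at the cleavage furrow, at -0.40 ± 0.09, and Racgap1, the partner of Kif23, at -0.22 ± 0.06. Prc1, which bundles the microtubules of the central spindle, had 4300 and 4426 on the NS-398 arrays, against 4396 and 4207 on the DMSO arrays, and the groups overlapped.

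Among the remaining roles, the proliferation marker Mki67 and the topoisomerase Top2a fell by 0.28 ± 0.07 and by 0.24 ± 0.07 in set b. Of the spindle motors and microtubule proteins, Kif2c, which takes apart microtubules at the centromere, fell by 0.38 ± 0.09 and Kif11, which pushes the spindle poles apart, by 0.26 ± 0.08. Cenpf, a protein of the kinetochore and nuclear matrix, fell by 0.28 ± 0.09. Cdc20, which activates the anaphase-promoting complex, had 1361 and 1199 under NS-398, against 2014 and 2323 under DMSO. That fall of -0.74 ± 0.18 (limma adjusted p 0.0121) is the lowest change among the 30. Another probe set of Cdc20 of like brightness (mean signals of 1288 and 1479) had only -0.23 and did not pass (limma adjusted p 0.0991). The dimmer second probe set of Kif23 (mean signal 552) had -0.25 and did not pass (limma adjusted p 0.208). Those of Kif2c (-0.33), Ttk (-0.41) and Racgap1 (-0.17) did not pass either, while those of Top2a, Ccnb1 and Kif11 did. Ccna2, Bub1, Kif20a and Kif23 were the 4 of the 16 that stayed called whichever array was left out and under each alternative setting.

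The other genes of the 30 were not called under NS-398 in set b. Among the kinases, Aurka, which matures the spindle poles, had 756 and 700 on the NS-398 arrays, against 953 and 840 on the DMSO arrays, and the groups were apart (-0.28 ± 0.10, limma adjusted p 0.058). Aurkb, which corrects wrong attachments of chromosomes, had 1445 and 1497, against 1486 and 1879, and the groups overlapped (-0.18 ± 0.10). Plk1 had 1173 and 1360, against 1425 and 1534 (-0.22 ± 0.13). Birc5, or survivin, which holds Aurora B at the centromere, had 1295 and 1045, against 1455 and 1451 (-0.31 ± 0.13, limma adjusted p 0.125). Nusap1 had 2099 and 2298, against 2498 and 2480, a change of -0.18 ± 0.07 with an adjusted p of 0.0976 in limma. Its other probe set had 0.14. For all of these but Aurkb both NS-398 arrays lay below both DMSO arrays. Cenpe, a motor that moves chromosomes to the spindle equator, had 597 and 681 on the NS-398 arrays, against 649 and 697 on the DMSO arrays. Its groups overlapped, as did those of Cenpa and Cdc25b, and the changes were -0.07 ± 0.13, -0.01 ± 0.16 and -0.13 ± 0.23. Pttg1 had a change of -0.12 ± 0.08.

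In the plain set few mitotic genes changed under the same drug. Of the 30 genes 3 rose and 1 fell in limma, where 6.13% of all probe sets rose and 5.81% fell. The median change was 0.0595, with 23 genes above 0. Cks2 rose by 0.38 ± 0.06, with 5617 and 6038 on the NS-398 arrays, against 4573 and 4358 on the DMSO arrays (limma adjusted p 0.000411). Ube2c rose by 0.32 ± 0.06, with 2340 and 2327, against 1867 and 1859 (limma adjusted p 0.00404). Neither gene's groups overlapped, and both calls held with any 1 array left out. Mad2l1 rose by 0.35 ± 0.10 (limma adjusted p 0.0378) and Plk1 fell by 0.41 ± 0.13 (limma adjusted p 0.0486). Both of these calls were lost without NS-398 array 1 or 2, which left 2 calls in each case, as did fitting the plain set alone, dropping the filter on low signals or dropping the intensity trend. Plk1 lost its call in 9 of the 14 fits that left out an array. It had 798 and 709 on the plain NS-398 arrays, against 1190 and 861 on the plain DMSO arrays.

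**Figure D2:**
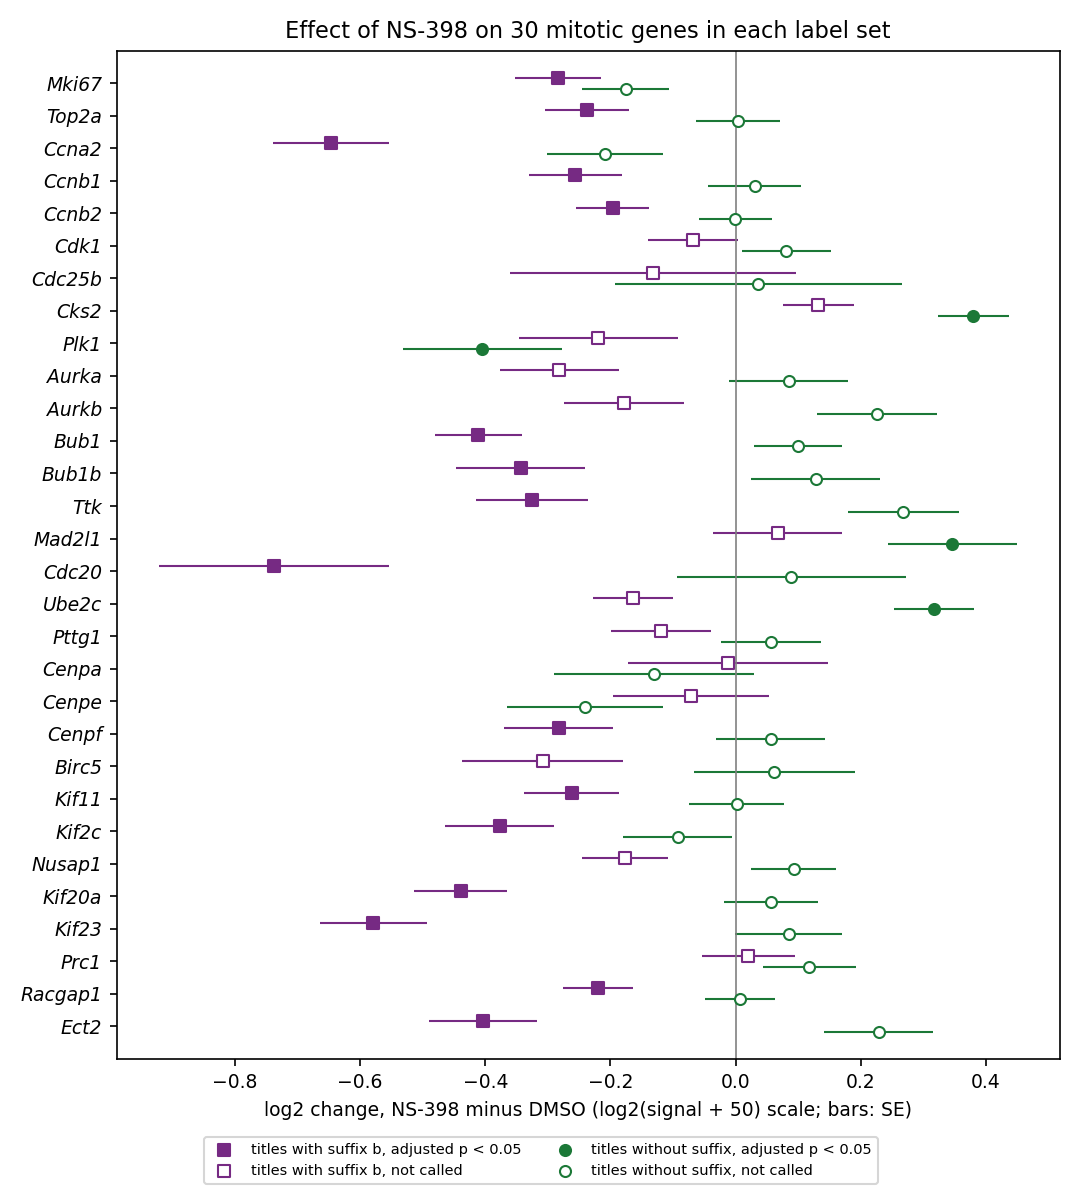
Change of each mitotic gene under NS-398 relative to DMSO on the scale log2(signal + 50), in set b (squares) and in the plain set (circles), with SE from the limma fit as bars and filled symbols for an adjusted p under 0.05. In set b 27 of the 30 genes lie left of 0, and in the plain set 23 lie right of 0.

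Whether the effect of NS-398 differed between the sets was tested directly, as the change in set b minus that in the plain set. For 6 of the 30 genes the effect was lower in set b and for none higher. Limma called 2.86% of all probe sets lower and 3.23% higher. At an unadjusted p under 0.05, 20 genes were lower and 0 higher, where 3705 of 17515 probe sets passed in either direction. The median difference was -0.28, against -0.0048 over all probe sets. Opposite signs in the sets were seen for 20 genes, each of them below 0 in set b and above 0 in the plain set, while 7 were below 0 in both and 3 above 0 in both. The share of all probe sets with opposite signs was not computed. Over the 30 genes the effects in the sets had a Pearson r of 0.208, against 0.274 over all probe sets tested. Both are descriptions of genes that share their arrays. Each set has its own DMSO arrays, which also carry the difference between the sets described above.

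The 6 genes were Kif23, Ect2, Ttk, Bub1, Kif20a and Ube2c. Kif23 had 2020 and 1861 on the set b NS-398 arrays, against 3069 and 2779 on the set b DMSO arrays. In the plain set it had 1426 and 1574 under NS-398, against 1435 and 1386 under DMSO. The groups were apart in set b and overlapped in the plain set, and the difference of effects was -0.66 ± 0.12 (limma adjusted p 0.00431). Ect2 had 4044 and 3322 under NS-398 in set b, against 4900 and 4832 under DMSO. In the plain set it had 3723 and 4115 under NS-398, against 3457 and 3215 under DMSO. The NS-398 arrays thus lay below DMSO in set b and above it in the plain set, with a difference of effects of -0.63 ± 0.12 (limma adjusted p 0.00605).

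Ttk behaved in the same way, with 1416 and 1222 under NS-398 in set b, against 1727 and 1598 under DMSO. In the plain set it had 1294 and 1255 under NS-398, against 1098 and 1003 under DMSO (difference of effects -0.59 ± 0.13, limma adjusted p 0.0107). Its arrays did not overlap in either set. Bub1 had 1951 and 1949 under NS-398 in set b, against 2737 and 2487 under DMSO, and 1571 and 1641, against 1524 and 1467, in the plain set. Kif20a had 3056 and 2969 under NS-398 in set b, against 4075 and 4129 under DMSO, and 2152 and 2161, against 2165 and 1982, in the plain set. The differences of effects were -0.51 ± 0.10 for Bub1 and -0.50 ± 0.11 for Kif20a (limma adjusted p 0.00605 and 0.0109). Ube2c had 3163 and 3140 under NS-398 in set b, against 3531 and 3539 under DMSO, so that it lay below DMSO there and above it in the plain set (-0.48 ± 0.09, limma adjusted p 0.00517). For Kif23, Ttk, Bub1, Kif20a and Ube2c the NS-398 arrays of set b all lay below the DMSO arrays of that set and above those of the plain set. For Ect2 they did not, as NS-398 array 2b with 3322 lay below the plain DMSO array 1 with 3457. The share of all probe sets with this order was not computed. The difference was lost for Ttk without DMSO array 2 or 1b and for Kif20a without DMSO array 2.

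**Figure D3:**
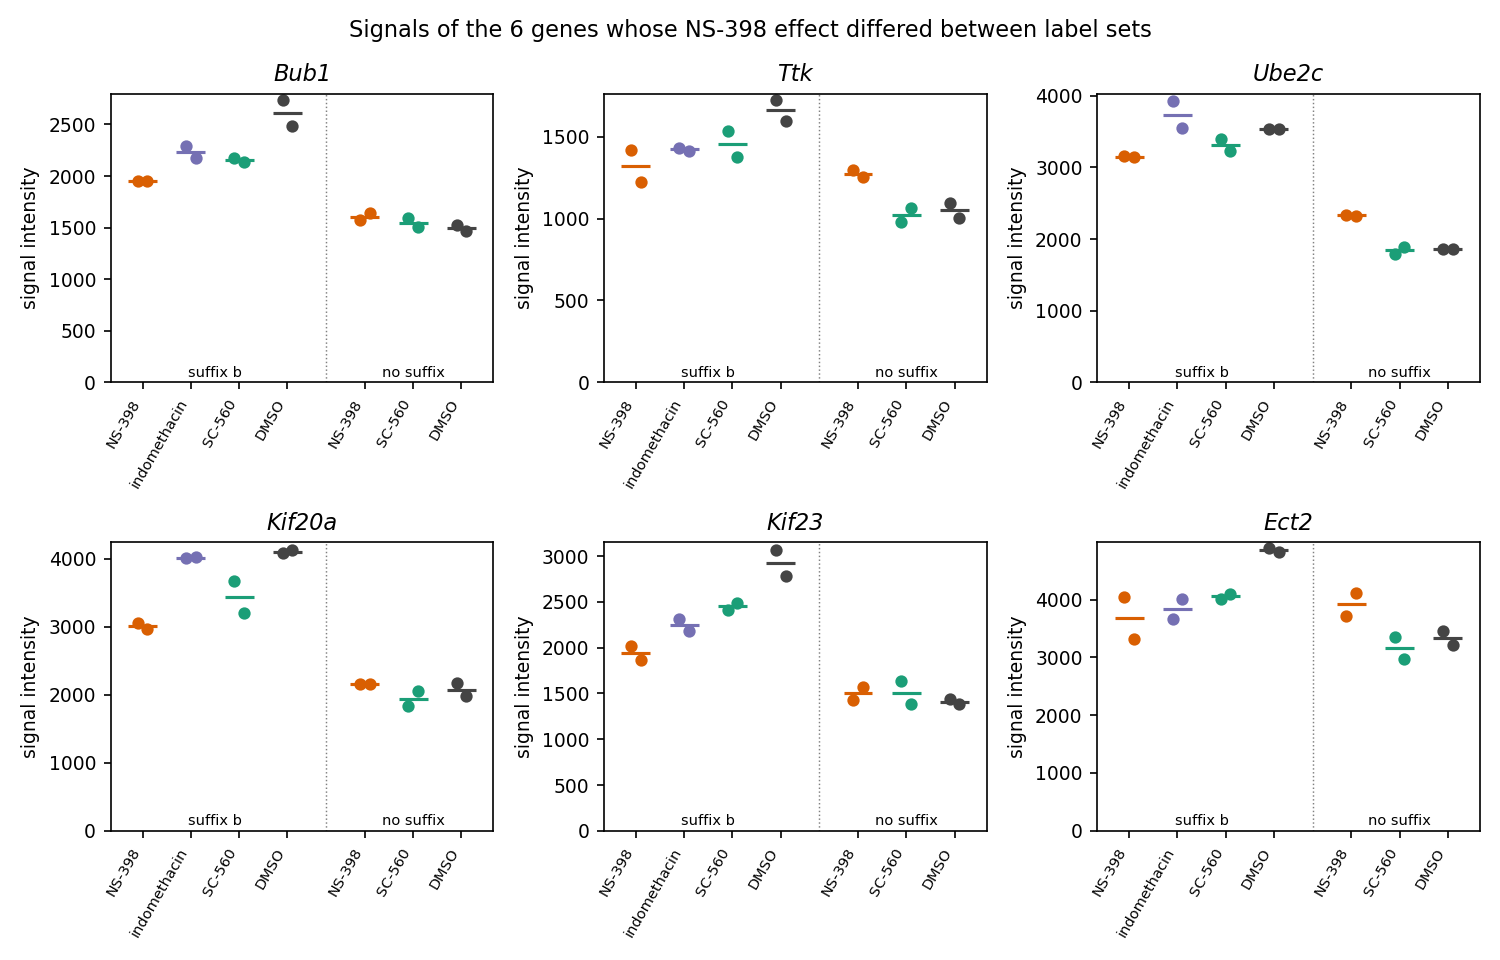
Signal intensity of the 6 genes whose NS-398 effect differed between the sets, 1 point per array and a bar at the mean of 2, with set b left and the plain set right of the dotted line. In set b the NS-398 arrays lie below the DMSO arrays in each panel, as for Kif23 with 2020 and 1861 against 3069 and 2779.

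Many mitotic genes are known to share promoter elements that restrict them to late cell cycle phases. One is the cell cycle genes homology region, usually TTTGAA or TTCGAA, through which the MuvB complex acts, and another is the CCAAT box bound by NF-Y. RefSeq promoter windows of the assembly GRCr8, reaching from 250 bases before to 50 after the annotated start, were matched by gene identifier for 26 of the 30 genes. On either strand, TTTGAA or TTCGAA was found in 19 of the 26 windows (73.1%), against 19.5% of 27457 windows of all genes. CCAAT was found in 21 of 26 (80.8%), against 37.7% of all windows, and 15 of the 26 held several. Both elements were found in 17 windows (65.4%, against 7.83% of all windows). The windows of all genes include predicted and noncoding genes, and a match of letters is a description and not a site. A CCAAT and a TTTGAA next to each other can share letters at their ends.

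Windows are printed for 5 of the genes whose NS-398 effect differed between the sets, and for Cks2, which rose in the plain set, so that the elements can be seen beside the values. They run 5' to 3' on the strand of the gene, with the letters of each match in capitals, so that a match on the other strand shows the reversed complement.
Kif23 (GRCr8, chr8:71320535-71320834, minus strand): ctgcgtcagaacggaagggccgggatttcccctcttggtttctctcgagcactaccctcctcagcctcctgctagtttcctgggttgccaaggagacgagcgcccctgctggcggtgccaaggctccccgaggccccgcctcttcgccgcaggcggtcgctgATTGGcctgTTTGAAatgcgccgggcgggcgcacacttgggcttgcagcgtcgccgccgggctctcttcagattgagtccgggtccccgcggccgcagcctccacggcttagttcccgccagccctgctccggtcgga
Ect2 (GRCr8, chr2:111966577-111966876, minus strand): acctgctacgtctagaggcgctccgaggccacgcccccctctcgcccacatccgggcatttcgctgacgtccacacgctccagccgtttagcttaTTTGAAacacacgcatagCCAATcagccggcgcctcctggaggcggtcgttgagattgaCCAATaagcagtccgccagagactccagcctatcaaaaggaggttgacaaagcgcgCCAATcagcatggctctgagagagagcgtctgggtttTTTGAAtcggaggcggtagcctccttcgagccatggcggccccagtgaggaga
Ttk (GRCr8, chr8:93634389-93634688, plus strand): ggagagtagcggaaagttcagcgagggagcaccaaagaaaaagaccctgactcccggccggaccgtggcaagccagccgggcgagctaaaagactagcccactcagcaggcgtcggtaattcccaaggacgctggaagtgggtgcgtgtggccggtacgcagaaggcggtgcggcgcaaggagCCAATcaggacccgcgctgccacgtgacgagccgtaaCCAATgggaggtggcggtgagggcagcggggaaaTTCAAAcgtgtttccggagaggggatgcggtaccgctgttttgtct
Kif20a (GRCr8, chr18:26504172-26504471, plus strand): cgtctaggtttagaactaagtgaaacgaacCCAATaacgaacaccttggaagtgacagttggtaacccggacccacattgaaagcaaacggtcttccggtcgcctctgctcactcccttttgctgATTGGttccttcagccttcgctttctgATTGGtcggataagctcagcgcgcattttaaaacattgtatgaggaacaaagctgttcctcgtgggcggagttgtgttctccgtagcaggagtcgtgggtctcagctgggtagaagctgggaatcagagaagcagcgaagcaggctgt
Bub1 (GRCr8, chr3:135504872-135505171, minus strand): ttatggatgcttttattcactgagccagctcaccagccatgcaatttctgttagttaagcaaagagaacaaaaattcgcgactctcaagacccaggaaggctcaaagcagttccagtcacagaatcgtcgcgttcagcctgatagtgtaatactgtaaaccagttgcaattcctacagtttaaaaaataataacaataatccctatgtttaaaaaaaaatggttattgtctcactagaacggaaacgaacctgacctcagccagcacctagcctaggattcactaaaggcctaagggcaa
Cks2 (GRCr8, chr17:13727470-13727769, minus strand): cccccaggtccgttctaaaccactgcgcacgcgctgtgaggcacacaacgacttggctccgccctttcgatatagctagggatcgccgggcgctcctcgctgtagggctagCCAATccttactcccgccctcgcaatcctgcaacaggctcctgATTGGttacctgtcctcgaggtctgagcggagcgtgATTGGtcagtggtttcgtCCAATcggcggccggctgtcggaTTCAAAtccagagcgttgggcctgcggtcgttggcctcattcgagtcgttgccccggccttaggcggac
Kif23 and Ttk hold 1 TTTGAA each and Ect2 holds 2, each beside CCAAT. Kif20a holds CCAAT at 3 places and neither form of the homology region, and Bub1 holds none of the 3 motifs in this window. Cks2, whose change under NS-398 was above 0 in both sets, holds 1 TTTGAA and 4 CCAAT. Whether these letters bear on the values under NS-398 was not tested.

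Averaged over the sets, NS-398 lowered 7 of the 30 genes and raised 1 in limma, where 9.5% of all probe sets fell and 10% rose. Ccna2 fell by 0.43 ± 0.07 and Mki67 by 0.23 ± 0.05, with changes below 0 in each set and no call lost when any 1 array was left out. Mki67 had 5686 and 5506 on the NS-398 arrays of set b, against 6724 and 6923 on the DMSO arrays. In the plain set it had 4144 and 4096 under NS-398, against 4746 and 4575 under DMSO. No NS-398 array reached a DMSO array of its set, and the effect on Mki67 differed by only -0.11 ± 0.10 between them (95% interval -0.32 to 0.10). Cks2 rose by 0.26 ± 0.04 (limma adjusted p 0.000331). Plk1, Bub1, Kif2c, Kif20a and Kif23 also fell, with changes of -0.31, -0.16, -0.23, -0.19 and -0.25. Of these, Bub1, Kif20a and Kif23 were below 0 in set b alone, so that their average describes neither set. The calls of Plk1, Bub1, Kif2c and Kif20a were each lost in some of the fits that left out an array. The count was 5 without NS-398 array 1 or 2. With additive terms for drug and set in place of separate means it was 4, with 1 higher and 3 lower. Bub1, Kif2c, Kif20a and Kif23 were not called in that fit. Kif23 was also not called with the mean of all probe sets of a gene.

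**Figure D4:**
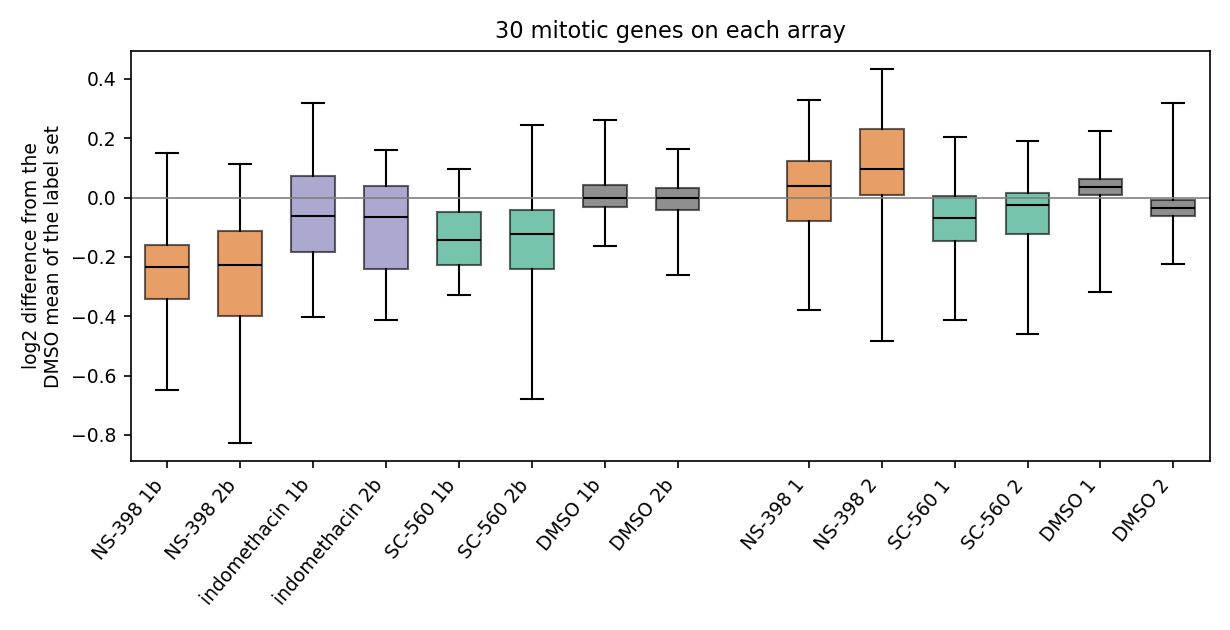
Difference of the 30 mitotic genes on each array from the DMSO mean of the same set, on the scale log2(signal + 50), with boxes for the quartiles, a line at the median and whiskers to the extremes. The medians of the set b NS-398 arrays are -0.235 and -0.228, and those of the plain NS-398 arrays are 0.0398 and 0.0965.

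The arrays of a pair agreed closely in set b. The 30 genes had a median of -0.235 and -0.228 on the NS-398 arrays of set b relative to the DMSO mean of the set. The medians were 0.0398 and 0.0965 on the plain NS-398 arrays. Within the plain DMSO pair, 25 of the 30 genes were higher on array 1 than on array 2, by a median of 0.0719, against 48.3% of all probe sets. In the other 6 pairs of arrays, 11 to 20 of the 30 genes were higher on the array numbered 1.

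Indomethacin was measured in set b alone, where few mitotic genes changed. Relative to DMSO 3 of the 30 genes fell in limma and none rose, where 3.67% of all probe sets fell and 3.43% rose, and the median change was -0.0932. At an unadjusted p under 0.05, 9 genes were lower and 2 higher, where 3760 of 17515 probe sets passed in either direction. The 3 genes belong to cytokinesis: Kif23 fell by 0.37 ± 0.09, Ect2 by 0.34 ± 0.09 and Racgap1 by 0.20 ± 0.06 (limma adjusted p 0.0152, 0.0253 and 0.0415). Ect2 had 3671 and 4003 under indomethacin, against 4900 and 4832 under DMSO. The other, dimmer probe sets of Kif23 and Racgap1 had changes of 0.00605 and 0.00103. With the mean of all probe sets of a gene, Kif23 had -0.18 and Racgap1 -0.098, and neither was called (limma adjusted p 0.204 and 0.556). None of the 3 was called without DMSO array 1b or either indomethacin array, and 1 was left without DMSO array 2b or without the filter on low signals. With additive terms for drug and set, or without the intensity trend, none was called. The comparisons of the 3 drugs with DMSO in set b all rest on the same 2 DMSO arrays.

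Indomethacin and NS-398 were used at the same dose and can be set against each other in set b without the DMSO arrays. This was the 1 pair of drugs tested against each other. Relative to NS-398, 7 of the 30 genes were higher under indomethacin in limma and none was lower. Of all probe sets, 4.11% were higher and 5.87% lower. At an unadjusted p under 0.05, 14 genes were higher and 0 lower, where 4178 of 17515 probe sets passed in either direction. The median difference was 0.17, and 29 of the 30 genes lay above 0. Ccnb1 had 3840 and 3341 under indomethacin, against 2486 and 2639 under NS-398, and its groups were apart (0.48 ± 0.07, limma adjusted p 0.000702). Ccna2 had 2875 and 2782, against 2166 and 2038 (0.42 ± 0.09), and Kif20a 4013 and 4018, against 3056 and 2969 (0.41 ± 0.07). Kif2c, Nusap1, a microtubule protein of the spindle, Ube2c and Ccnb2 were higher by 0.31, 0.26, 0.24 and 0.21. With the mean of all probe sets of a gene, Kif2c (0.24) and Nusap1 (0.0572) were not called (limma adjusted p 0.123 and 0.73). The other probe set of Nusap1, of like brightness, had a change from DMSO of -0.0046 under indomethacin and 0.14 under NS-398, so that the drugs stood in the opposite order there. For Kif23, Ect2 and Racgap1, which fell under indomethacin, the differences between the drugs were 0.21, 0.06 and 0.02 and did not pass. The 95% interval of the Racgap1 difference ran from -0.10 to 0.14. Without indomethacin array 1b 2 genes were called, without NS-398 array 1b 4 and without NS-398 array 2b 3. The count was 0 with additive terms for drug and set and 3 without the intensity trend. On 12 of the 30 genes both NS-398 arrays lay below the other 6 arrays of set b, which held for 12% of all probe sets.

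SC-560 at 1 µM gave no call among the 30 genes in limma, in either set or averaged over them. At an unadjusted p under 0.05 there were 9 lower genes in set b, 4 in the plain set and 13 for the average, and no higher ones. Of the 17515 probe sets, 1781, 1134 and 1768 passed that unadjusted threshold in these comparisons, in either direction. At an adjusted p under 0.05, 0.0228% of all probe sets were called in set b, 0.0114% in the plain set and 0.0914% for the average. The median change of the 30 genes was -0.13 in set b and -0.059 in the plain set. In set b the median was -0.25 under NS-398. The adjustment runs over all probe sets of a comparison, so that changes of like size can differ in call. In set b Top2a had -0.27 under SC-560 without a call and -0.24 under NS-398 with one. The changes nearest to the threshold for the average were those of Top2a (-0.19 ± 0.05, limma adjusted p 0.135) and Cenpf (-0.25 ± 0.06, limma adjusted p 0.141). Top2a had 3243 and 3176 under SC-560 in set b, against 3791 and 3984 under DMSO, and 2411 and 2355, against 2545 and 2619, in the plain set. Its arrays did not overlap in either set. For 20 of the 30 genes the SC-560 arrays of set b lay below both DMSO arrays, as 19.7% of all probe sets did, and for 8 genes those of the plain set did, as 15.8% did. Its dose differs from that of the other drugs, so no test set them against it. The values printed side by side hold different doses.

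**Figure D5:**
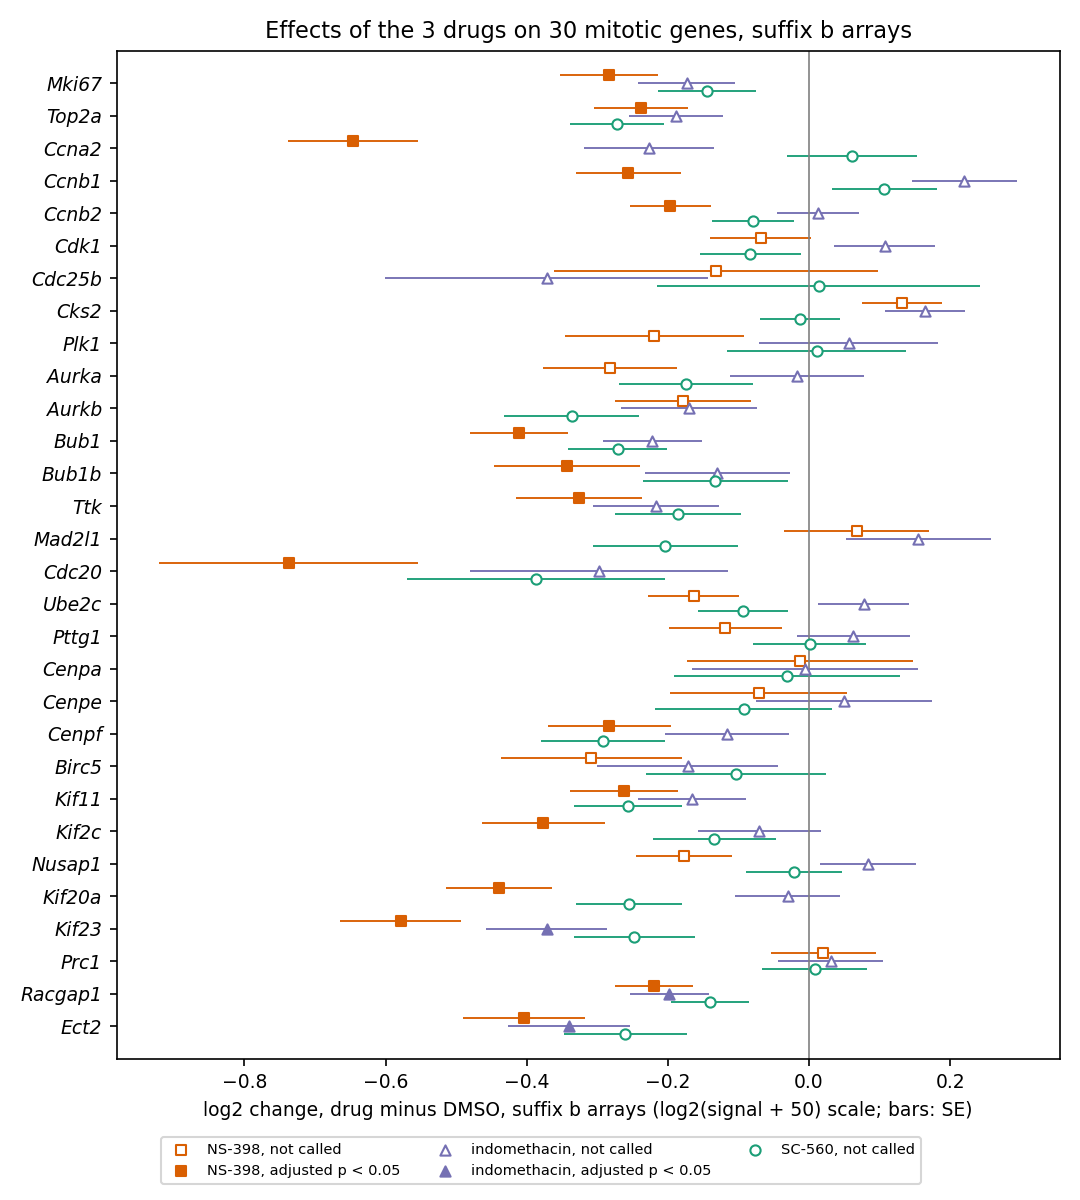
Change of each mitotic gene under NS-398 (squares), indomethacin (triangles) and SC-560 (circles) relative to the same 2 DMSO arrays of set b, on the scale log2(signal + 50), with SE as bars and filled symbols for an adjusted p under 0.05. Filled symbols number 16 for NS-398, 3 for indomethacin and 0 for SC-560.

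Other genes of mitosis were taken from a list of 74, of which 61 were on the arrays and 59 were tested. On the DMSO arrays 46 were higher and 1 lower in set b than in the plain set in limma (21.8% and 20.1% of all probe sets). Under NS-398 14 fell and none rose in set b (median -0.15), where 6.99% of all probe sets fell and 7.71% rose. For the plain set these counts were 9 higher and 1 lower (median 0.14), where 6.13% of all probe sets rose and 5.81% fell. The effect was lower in set b for 15 genes and higher for 1 (2.86% and 3.23% of all probe sets). Smc2, a subunit of the condensin complex that compacts chromosomes, fell by 0.70 ± 0.10 under NS-398 in set b and had 0.11 ± 0.10 in the plain set. Shcbp1, a partner of the central spindle, fell by 0.45 ± 0.08 in set b and rose by 0.34 ± 0.08 in the plain set. Pbk, a mitotic kinase, and Hmmr, a spindle protein, rose in the plain set by 0.48 ± 0.09 and 0.40 ± 0.09, and the kinetochore gene Zwint fell there by 0.45 ± 0.12. Under indomethacin 3 of the 59 fell, a share near the 3.67% of all probe sets, among them Smc2 (-0.50 ± 0.10) and the kinetochore gene Zwilch (-0.34 ± 0.09).

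Genes of DNA replication, which precedes mitosis, were also divided by set. Of 41 tested, 7 fell and none rose under NS-398 in set b (median -0.16), where 6.99% of all probe sets fell. Of the same genes 14 rose and none fell in the plain set (median 0.23), where 6.13% of all probe sets rose. The effect was lower in set b for 14 of the 41, as for 2.86% of all probe sets. Cdt1, which licenses origins, rose by 0.57 ± 0.09 and Dut, which removes dUTP, by 0.32 ± 0.06 in the plain set. Gins4, a part of the replicative helicase, fell by 0.62 ± 0.10 and Mcm4, another part of it, by 0.33 ± 0.07 in set b. Under indomethacin 2 of the 41 fell, a share near the 3.67% of all probe sets, Gins4 (-0.41 ± 0.10) and the primase subunit Prim1 (-0.20 ± 0.06).

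Of 23 tested regulators of G1 and inhibitors of cyclin-dependent kinases, 3 rose and 1 fell under NS-398 in set b, where 7.71% of all probe sets rose and 6.99% fell. For the plain set 5 rose and 1 fell, where 6.13% of all probe sets rose and 5.81% fell. Ccnd1, the cyclin of G1 phase, rose under NS-398 by 0.85 ± 0.09 in set b and by 0.67 ± 0.09 in the plain set, and under indomethacin by 0.71 ± 0.09. Cdkn1b, an inhibitor of cyclin-dependent kinases, rose by 0.24 ± 0.05 under NS-398 in set b, where the cyclin of S phase entry Ccne2 fell by 0.44 ± 0.11. Myc, which promotes growth, rose by 0.55 ± 0.08 and the retinoblastoma gene Rb1 fell by 0.58 ± 0.16 in the plain set.

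Genes that mark cell types moved in both directions beside the mitotic genes. Of 9 epithelial genes tested, 3 rose and 1 fell under NS-398 in set b, 2 fell in the plain set and 3 rose under indomethacin. Among all probe sets, 7.71% rose and 6.99% fell under NS-398 in set b, and 6.13% rose and 5.81% fell in the plain set. Under indomethacin 3.43% rose and 3.67% fell. The keratin gene Krt8 fell under NS-398 by 0.35 ± 0.06 in set b and by 0.26 ± 0.06 in the plain set and rose by 0.22 ± 0.06 under indomethacin. Cdx2, an intestinal transcription factor, rose by 0.60 ± 0.16 under NS-398 in set b. Krt19, another keratin gene, rose there by 0.70 ± 0.19. The tight junction gene Ocln fell by 0.69 ± 0.20 under NS-398 in the plain set, and the intestinal factor Cdx1 rose by 1.23 ± 0.31 under indomethacin. Of 11 fibroblast and smooth muscle genes tested, 3 rose and 2 fell under NS-398 in set b. In the plain set 3 rose and 3 fell, and under indomethacin 2 fell, beside the same shares of all probe sets. Tagln, a smooth muscle gene of the actin cytoskeleton, fell by 1.62 ± 0.21 under NS-398 in set b and by 1.88 ± 0.21 under indomethacin. The collagen gene Col1a2 fell under NS-398 by 0.16 ± 0.05 in set b and by 0.33 ± 0.05 in the plain set, where Col3a1 fell by 0.32 ± 0.05. The proteoglycan gene Dcn rose under NS-398 by 0.62 ± 0.13 in set b and by 0.97 ± 0.13 in the plain set and fell by 0.66 ± 0.13 under indomethacin. Lum, another proteoglycan gene, rose by 1.64 ± 0.28 in the plain set under NS-398, and Des, the muscle intermediate filament gene, rose by 0.69 ± 0.19 in set b. None of the 3 leukocyte and endothelial genes tested was called by limma under NS-398 in either set or under indomethacin. At an unadjusted p under 0.05 there was 1, under NS-398 in the plain set, where 4619 of 17515 probe sets passed.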

How the data were processed

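Gene expression in IEC-6 cells was measured on 14 Affymetrix arrays. Per the labels, total RNA went through a small-sample labelling protocol with 2 rounds of in vitro transcription, which favours the 3' ends of transcripts, and the deposited signal intensity values were scaled by the authors to a target of 500 on every array. No label or file header names the program that combined probes into probe set signals. The trimmed means of the arrays lay between 500.163 and 500.173, and no further scaling was applied.

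Probe sets were named through the platform annotation, with symbols updated by gene identifier through the RefSeq table of GRCr8. Of 31099 probe sets, 20832 had 1 symbol, 436 several and 9831 none listed, and 20764 identifiers were matched. After leaving out 57 control probe sets, those with a signal of at least 100 on 2 arrays were kept (17515), and log2(signal + 50) was taken. Groups came from the sample titles. A limma fit (version 3.58.1, R 4.3.3) held 1 mean for each of 7 combinations of treatment and label set, with 7 residual degrees of freedom and a prior variance following intensity, and p-values were Benjamini-Hochberg adjusted over all probe sets tested. The calculation was tested on simulated data. The number of arrays limits the precision.

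The 30 genes and the other lists were chosen with earlier results of these data known. All 30 genes are described. From each other list, the called genes of lowest adjusted p were named, at most 2 rising and 2 falling, for NS-398 in each set and for indomethacin, with 10 marker genes. No pairing by the numbers 1 and 2 of the titles was assumed in the main fit. After removing group means, arrays of the same number in a set had r of -0.0784 to 0.063 over 18 pairs. With 2 arrays in each combination the deviations mirror each other, so these pairs are not independent and cannot exclude a pairing. Alternatives were additive terms for drug and label set, each label set alone, a replicate block, pseudocounts of 16 and 200, no filter, a filter at 200, quantile normalization, no intensity trend, the mean of all probe sets of a gene, and each array left out. Motifs were searched in RefSeq promoter windows.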

Additional observations from a re-analysis of the deposited data

Results flagged for a closer look

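For 6 of the 30 mitotic genes the effect of NS-398 on the scale log2(signal + 50) differed between the label sets by a direct limma test of the difference, the change in set b minus that in the plain set. It was -0.66 for Kif23 (95% interval -0.92 to -0.41) and -0.63 for Ect2. Ttk had -0.59, Bub1 -0.51, Kif20a -0.50 and Ube2c -0.48. For Ect2, Ttk, Bub1 and Ube2c the NS-398 arrays lay below the DMSO arrays in set b and above them in the plain set. These genes were picked by the test of this difference, so the order adds no support to it. Of all probe sets, 28.5% lay below in set b, and the share with both orders was not computed. The beta-actin 3' to 5' ratio was 1.22 to 1.34 in set b and 1.498 to 1.639 in the plain set. That of Gapdh overlapped between the sets, with 0.955 to 1.002 in set b and 0.902 to 0.990 in the plain set. The part of RNA quality in these differences was not tested.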

How the results depend on the processing

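No change of a mitotic gene that passed the test turned its direction under any alternative. Leaving out 1 array at a time gave 7 to 16 called genes for NS-398 in set b, 2 to 5 in the plain set, 5 to 7 for the difference between the sets and 5 to 8 for their mean. It gave 0 to 3 for indomethacin against DMSO, 2 to 7 for indomethacin against NS-398 and 26 to 27 for the DMSO arrays of set b against the plain set. With additive terms for drug and label set, 4 genes were called for NS-398 over both sets and 0 for indomethacin against DMSO and against NS-398. The plain set fitted alone gave 2 genes for NS-398. Without the filter the count was 2 for NS-398 in the plain set and 1 for indomethacin against DMSO. Without the intensity trend it was 6 for NS-398 in set b, 2 in the plain set, 5 for their mean, 4 for the difference, 0 for indomethacin against DMSO and 3 against NS-398. With the replicate block it was 15 for NS-398 in set b, 3 in the plain set, 2 for indomethacin against DMSO and 6 against NS-398. The cause of these moves was not tested, except that fits with fewer arrays hold fewer residual degrees of freedom. SC-560 gave 0 called genes under each alternative. Over all probe sets, the count for indomethacin against DMSO was 1243, against 572 with additive terms and 566 without the trend, and that for indomethacin against NS-398 was 1749, against 954 and 1057. With 2 arrays in each combination of drug and set, small changes could be missed, and Cdc25b and Cenpa were dim.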
